A study of Mus musculus with 12 samples.

Results

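The creatine kinase shuttle and myoglobin were followed in mouse cardiomyocytes through 9 genes, Ckm, Ckb, Ckmt2, Gatm, Slc6a8, Ak1, Ak4, Ampd3 and Mb. They were taken from the table of gene levels by symbol, and all 9 were found among its 22915 genes. Of the 9, 8 reached a normalized count of 10 in 3 libraries or more and were tested together with all other genes that did, 13184 in total. Gatm stayed below this limit and was not tested. Primary cardiomyocytes of adult male C57/Bl6 mice, 12 weeks of age, were cultured and given PBS, mLIF, mOSM or hlOSM for 24 h in normoxia. The sample descriptions give 25 ng/mL as the concentration of each recombinant protein, state no genotype beyond the strain, and name PBS, the solvent, as the control. Sources differ on this concentration. Mouse LIF (mLIF) signals through the LIF receptor and mouse OSM (mOSM) through the OSM receptor, whereas hlOSM is a mouse OSM with a loop of the human protein that lets it act on both. RNA of 3 libraries per condition, 12 in all, was sequenced in bulk. Nothing states that the libraries came from separate cultures or animals, so the p-values measure the spread between these samples, which may be technical. A difference between replicate numbers was nearly absent from the values: it held 0.0168% of the variance within conditions, where 25% would be found without any effect of replicate number. Whether such a difference was taken out before is not stated. With it so nearly absent, the limma fit without a replicate block counts more residual degrees of freedom than the values hold. The p-values of that fit, on which the calls given here rest, are therefore probably too small.

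Cardiac muscle consumes ATP at the myofilaments and ion pumps and makes most of it in mitochondria. Mitochondrial creatine kinase passes the phosphate of newly made ATP to creatine, phosphocreatine diffuses through the cytosol, and cytosolic creatine kinase rebuilds ATP where it is used. Adenylate kinases recover ATP from ADP and leave AMP, which AMP deaminase removes, and myoglobin stores oxygen and eases its passage to the mitochondria.

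Levels are the authors' normalized counts, which are not divided by gene length, so genes are compared with each other only after division by the exonic length in kilobases. Library totals of these values lay between 2745748 and 2911891. Such totals are not numbers of reads, and reads per library cannot be worked out from them. Fold changes are differences of log2(normalized count + 1), and a gene was called raised or lowered at a limma adjusted p under 0.05 over all 13184 genes. Of the cardiomyocyte markers, 7 of 7 (Myh6, Tnnt2, Tnni3, Actn2, Ryr2, Ttn and Pln) were above 0 in every one of the 12 libraries. The fibroblast, endothelial, mural and leukocyte markers looked at were also above 0 in every library. Presence alone therefore does not identify the cells.

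Among the 8 tested members the largest change belonged to Ckb, the brain-type subunit of creatine kinase, which was lowered by each cytokine, while Ampd3, an AMP deaminase, was raised by mOSM and hlOSM and, near the threshold, by mLIF. With mLIF, 1 of 8 tested members was raised, where 5.47% of all tested genes were, and 1 of 8 was lowered, where 4.44% were. With mOSM, 1 of 8 was raised against 15.4% of all genes, and 2 of 8 were lowered against 15.8%. With hlOSM, 1 of 8 was raised against 18.2%, and 3 of 8 were lowered against 19.8%. The median log2 fold change of the 8 members was −0.17 under mLIF, −0.16 under mOSM and −0.17 under hlOSM. Over all 13184 genes it was 0.00037, −0.0043 and −0.0052. The comparisons against PBS share the same 3 PBS libraries.

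**Figure D1:**
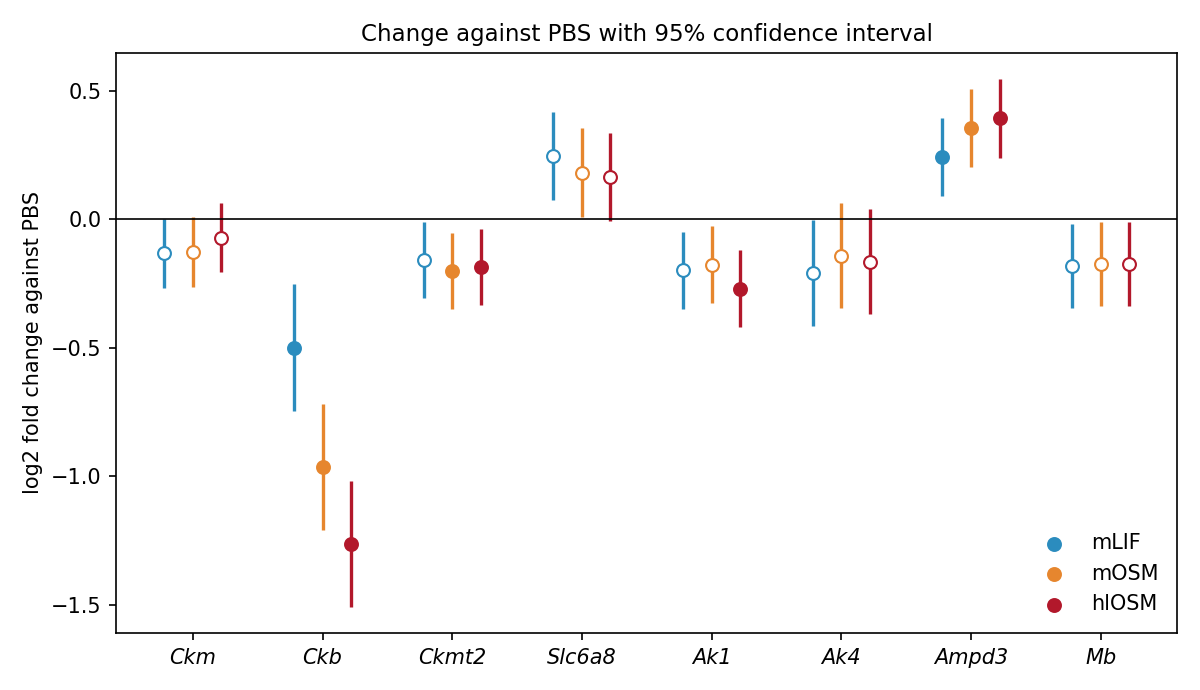
Log2 fold change of the 8 tested genes against PBS for mLIF, mOSM and hlOSM, with 95% confidence intervals as vertical lines; filled points passed a limma adjusted p of 0.05 and open points did not. Ckb lies far below 0, from −0.50 with mLIF to −1.26 with hlOSM, Ampd3 lies above 0 with each cytokine, and the other genes lie within 0.27 of 0.

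Ckm encodes the muscle-type cytosolic creatine kinase, which is bound in part to the myofilaments (chr7:19404776-19422841, plus strand, mm10). Its normalized counts were 615, 574 and 655 under PBS, 591, 572 and 519 under mLIF, 518, 572 and 599 under mOSM, and 579, 573 and 601 under hlOSM. Each cytokine group overlapped the PBS group, and no library stood apart. The log2 fold change against PBS was −0.13 (95% confidence interval −0.27 to 0.0030) under mLIF, −0.13 (−0.26 to 0.0085) under mOSM and −0.07 (−0.21 to 0.064) under hlOSM. None of them passed the threshold, with limma adjusted p of 0.206, 0.148 and 0.417, although the intervals do not show that the levels were equal.

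Ckb encodes the cytosolic isoform that is abundant in brain, smooth muscle and the fetal heart (chr12:111669361-111672338, minus strand). Its 3 PBS libraries had 103, 115 and 105 normalized counts. They were 78, 81 and 69 under mLIF, 54, 48 and 63 under mOSM, and 44, 42 and 47 under hlOSM. The 4 conditions did not overlap: every mLIF library lay below every PBS library, every mOSM library below every mLIF library, and every hlOSM library below every mOSM library. The mean fell from 108 ± 6.43 (SD, n = 3) under PBS to 76.0 ± 6.25 under mLIF, 55.0 ± 7.55 under mOSM and 44.3 ± 2.52 under hlOSM. With mLIF the log2 fold change was −0.50 ± 0.12 (SE; limma adjusted p = 0.00971). With mOSM it was −0.96 ± 0.12 (limma adjusted p = 1.48e-06). With hlOSM it was −1.26 ± 0.12 (limma adjusted p = 2.23e-08), a level 2.40-fold below PBS on this scale. Among all tested genes, 1.87% had a log2 fold change with hlOSM below that of Ckb. The call with mLIF ended when mLIF replicate 3 was left out (−0.43, limma adjusted p = 0.0678, range over all alternatives 0.00438 to 0.0678).

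Between cytokines, Ckb was the only called member. It was lower with mOSM than with mLIF by −0.46 (95% confidence interval −0.71 to −0.22; limma adjusted p = 0.0102), and 1 of 8 members was called lowered there against 5.76% of all tested genes. Without mLIF replicate 2 or without mOSM replicate 2 this call ended, at limma adjusted p of 0.0627 and 0.0657 (range over all alternatives 0.00423 to 0.0657). With hlOSM it was lower than with mLIF by −0.76 (−1.01 to −0.52; limma adjusted p = 7.05e-05), again 1 of 8 members, against 9.22% of all tested genes. From mOSM to hlOSM the difference was −0.30 (−0.54 to −0.052) and did not pass (limma adjusted p = 0.531), although the libraries did not overlap. In that comparison limma called 0 of 8 members lowered, against 0.106% of all genes. An unadjusted limma p under 0.05, in either direction, was found for 1 of 8, Ckb, and for 987 of all 13184 genes. The interaction asks whether LIF receptor signaling has another effect when OSM receptor signaling is on, and it is the difference of hlOSM from mOSM less that of mLIF from PBS. It has this meaning only if hlOSM acts on each receptor as mOSM and mLIF do at the concentration used. That was not tested, and no condition combined mOSM with mLIF. Limma called 0 of 8 members in this interaction, against 0.167% of all genes. Here 1 of 8, Slc6a8, had an unadjusted limma p under 0.05, as did 1521 of all 13184 genes. For Ckb the interaction was 0.20 (−0.15 to 0.55; limma adjusted p = 0.679).

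Ckmt2 encodes the sarcomeric mitochondrial creatine kinase of the intermembrane space, the entry point of the shuttle (chr13:91853387-91876885, minus strand). Normalized counts of Ckmt2 were 900, 882 and 954 under PBS, 880, 809 and 765 under mLIF, 727, 753 and 912 under mOSM, and 794, 841 and 771 under hlOSM. All mLIF and hlOSM libraries lay below all PBS libraries, whereas mOSM replicate 3 lay among the PBS libraries. Ckmt2 was lowered with mOSM by −0.20 ± 0.07 (SE; limma adjusted p = 0.0361) and with hlOSM by −0.19 ± 0.07 (limma adjusted p = 0.0446). With mLIF the difference was −0.16 ± 0.07 and did not pass (limma adjusted p = 0.164). Both calls were close to the threshold. The call with mOSM ended without PBS replicate 1 (limma adjusted p = 0.0583), PBS replicate 3 (0.133), mOSM replicate 1 (0.193) or mOSM replicate 2 (0.139). It also ended without a filter on low values (limma adjusted p = 0.0575), with trimmed means of M-values (0.0556), with quantile normalization (0.0638) and in a fit of only the libraries compared (0.0515), and the range over all alternatives was 0.000728 to 0.193. That with hlOSM ended without PBS replicate 1 (limma adjusted p = 0.0693), PBS replicate 2 (0.0535), PBS replicate 3 (0.152), mLIF replicate 2 (0.0556), hlOSM replicate 1 (0.0962) or hlOSM replicate 3 (0.137). Without a filter (limma adjusted p = 0.0693), with trimmed means of M-values (0.0696) and with quantile normalization (0.0961) it ended as well. The replicate number as a block also ended it (limma adjusted p = 0.0598), and the range over all alternatives was 0.00936 to 0.152.

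Per kilobase of exon, the creatine kinases kept one order of levels in each condition. With PBS, Ckmt2 had 614 ± 25.2 normalized counts per kilobase (SD, n = 3), Ckm 211 ± 13.9, Ckb 37.2 ± 2.22 and Ckmt1, the ubiquitous mitochondrial isoform, 0.534 ± 0.612. The first 3 of these levels lay further apart than their spread. As a share of the summed counts per kilobase of the 4 isoforms, Ckb held 4.32% ± 0.405 (SD, n = 3) under PBS, 3.41% ± 0.197 under mLIF, 2.54% ± 0.213 under mOSM and 2.03% ± 0.162 under hlOSM. The shares of Ckb did not overlap between conditions. Ckmt2 held 71.2% ± 0.256 with PBS and 71.4% ± 1.42 with hlOSM, and Ckm 24.5% ± 0.638 and 26.6% ± 1.26. Ckm thus exceeded Ckb per kilobase by a ratio of 5.70 ± 0.652 under PBS, 7.34 ± 0.281 under mLIF, 10.3 ± 1.36 under mOSM and 13.1 ± 0.426 under hlOSM, and the ratios of the 4 conditions did not overlap. The sum of the 4 isoforms was 863 ± 37.0 counts per kilobase under PBS, 770 ± 52.2 under mLIF, 750 ± 81.2 under mOSM and 756 ± 18.98 under hlOSM. These shares and sums are descriptions without a test, and they depend on the lengths used. The exonic lengths of Ckb (2895 bases) and Ckm (2913) pool 5 and 3 annotated transcripts, whereas Ckmt2 (1486) has 1. That of Ckb covers nearly all of its gene and may take in introns kept in some transcripts. The longest transcripts of Ckb (2839) and Ckm (2742) are little shorter. Levels of Ckb and Ckm per kilobase may thus be too low, and the share of Ckmt2 too high.

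**Figure D2:**
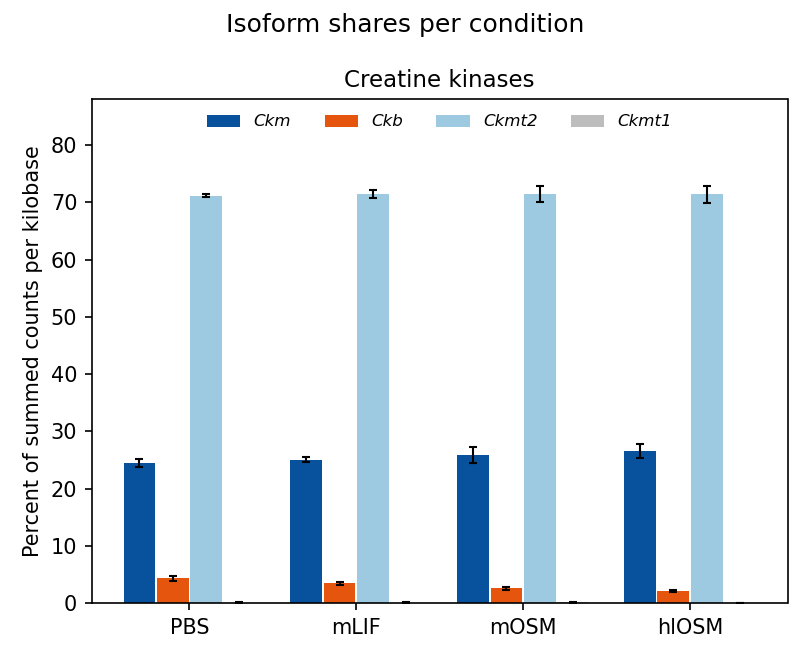
Share of each creatine kinase in the summed normalized counts per kilobase of the 4 isoforms, in percent, as mean with SD of 3 libraries per condition. Ckb holds 4.32% with PBS and 2.03% with hlOSM, Ckmt2 holds 71.2% and 71.4%, and Ckm holds 24.5% and 26.6%. The shares depend on the exonic lengths used.

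Creatine reaches cardiomyocytes from the blood. Slc6a8 encodes the plasma membrane creatine transporter (chrX:73673150-73682502, plus strand). The transporter had normalized counts of 667, 603 and 542 under PBS, 703, 698 and 742 under mLIF, 670, 715 and 664 under mOSM, and 609, 627 and 804 under hlOSM. The mLIF libraries all lay above the PBS libraries, and the other cytokine groups overlapped them. The log2 fold change was 0.25 ± 0.08 (SE) under mLIF, 0.18 ± 0.08 under mOSM and 0.16 ± 0.08 under hlOSM, none of which passed (limma adjusted p of 0.0616, 0.103 and 0.125). These calls changed with single libraries. The log2 fold change with hlOSM ranged from 0.038 to 0.238 when 1 library at a time was left out. Without PBS replicate 1 all 3 differences passed, at limma adjusted p of 0.0228, 0.0318 and 0.0383. Without hlOSM replicate 3, which had the highest value of all, those with mLIF and mOSM passed (limma adjusted p of 0.0143 and 0.0302), and so did the interaction (−0.39, limma adjusted p = 0.0478, against −0.26 and 0.39 with all libraries). Without hlOSM replicate 1 those with mLIF and hlOSM passed (limma adjusted p of 0.0497 and 0.0405). Over all alternatives the adjusted p ranged from 0.0112 to 0.281 under mLIF, 0.0235 to 0.414 under mOSM, 0.0383 to 0.724 under hlOSM and 0.0433 to 0.661 for the interaction.

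The genes of creatine synthesis had low values. Gatm, which encodes the amidinotransferase of the first step (chr2:122594467-122611303, minus strand), had normalized counts of 5, 3 and 3 under PBS, 2, 3 and 3 under mLIF, 6, 3 and 5 under mOSM, and 5, 7 and 9 under hlOSM. The hlOSM libraries reached the highest values and still touched the PBS range. Gamt, the methyltransferase of the second step, ranged from 1 to 8 and Ckmt1 from 0 to 3 over the 12 libraries, so that 0 of these 2 further genes of the creatine pathway could be tested. In a limma fit without the limit on low values, over 22915 genes, Gatm with hlOSM differed from PBS by 0.77 ± 0.39 (SE; adjusted p = 0.17) and from mLIF by 1.11 ± 0.39 (adjusted p = 0.0827). Neither passed, although the hlOSM libraries all lay above the mLIF libraries.

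Ak1 encodes the main cytosolic adenylate kinase of muscle (chr2:32621758-32635058, plus strand). Its normalized counts were 627, 530 and 610 under PBS, 531, 516 and 489 under mLIF, 474, 515 and 574 under mOSM, and 465, 515 and 482 under hlOSM. All hlOSM libraries lay below all PBS libraries, and mLIF and mOSM overlapped PBS. Ak1 was lowered with hlOSM by −0.27 ± 0.07 (SE; limma adjusted p = 0.00507). With mLIF the difference was −0.20 ± 0.07 and with mOSM −0.18 ± 0.07, and neither passed (limma adjusted p of 0.0822 and 0.0658). Between hlOSM and mOSM the difference was −0.09 (95% confidence interval −0.24 to 0.057), so that an effect of hlOSM apart from that of mOSM was not shown. Without PBS replicate 2, the lowest of its group, the differences with mLIF and mOSM passed (limma adjusted p of 0.0298 and 0.0157), as they did without mOSM replicate 3 (0.0457 and 0.0112). Their ranges over all alternatives were 0.0298 to 0.272 and 0.0112 to 0.306.

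Ak4 encodes an adenylate kinase of the mitochondrial matrix (chr4:101419277-101466995, plus strand). Ak4 had normalized counts of 132, 136 and 147 under PBS, 110, 121 and 128 under mLIF, 147, 118 and 113 under mOSM, and 116, 125 and 129 under hlOSM. The mLIF and hlOSM libraries lay below the PBS libraries, and mOSM replicate 1 equalled the highest of them. The log2 fold change was −0.21, −0.14 and −0.16 with mLIF, mOSM and hlOSM, each ± 0.10 (SE), and none passed (limma adjusted p of 0.184, 0.297 and 0.200).

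Of 6 further adenylate kinase genes looked at, 3 could be tested, and 1 of them was raised by each cytokine, where 5.47%, 15.4% and 18.2% of all tested genes were raised. Ak3, a GTP-dependent kinase of the matrix, was raised by 0.50 under mLIF, 0.43 under mOSM and 0.56 under hlOSM, from 301 ± 15.0 normalized counts (SD, n = 3) under PBS to 445 ± 49.0 under hlOSM. Ak6 and Ak7 did not pass, and Ak5, Ak8 and Ak9 were at 5 or less in every library. Per kilobase Ak3 had 96.6 ± 4.81 normalized counts (SD, n = 3) with PBS and 143 ± 15.7 with hlOSM, below the 227 ± 19.98 and 188 ± 9.81 of Ak1 in either condition and without overlap.

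Ampd3 encodes an AMP deaminase that is widely expressed and also found in heart and red cells (chr7:110768206-110812405, plus strand). Its normalized counts were 1222, 1120 and 993 under PBS, 1342, 1252 and 1340 under mLIF, 1283, 1456 and 1522 under mOSM, and 1375, 1397 and 1601 under hlOSM. Every cytokine library lay above every PBS library. The mean of 1112 ± 115 (SD, n = 3) under PBS compared with 1311 ± 51.4 under mLIF, 1420 ± 123 under mOSM and 1458 ± 125 under hlOSM. Ampd3 was raised with mOSM by 0.35 ± 0.07 (SE; limma adjusted p = 0.000729) and with hlOSM by 0.39 ± 0.07 (limma adjusted p = 0.000202). With mLIF it was raised by 0.24 ± 0.07 (limma adjusted p = 0.0378), a call that ended without PBS replicate 2 (0.0739), PBS replicate 3 (0.225), mLIF replicate 1 (0.115), mLIF replicate 2 (0.0517) or mLIF replicate 3 (0.139), and without a filter on low values (0.0618). The replicate number as a block also ended this call (limma adjusted p = 0.0536). The range of the adjusted p with mLIF over all alternatives was 0.0073 to 0.225. Cytokines did not differ from each other past the threshold: mOSM exceeded mLIF by 0.11 (95% confidence interval −0.040 to 0.26) and hlOSM exceeded mLIF by 0.15 (−0.0023 to 0.30).

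Of 15 other tested genes of AMP and purine handling, 2 were raised under mLIF, 5 raised and 1 lowered under mOSM, and 5 raised under hlOSM, where 5.47%, 15.4% and 18.2% of all tested genes were raised and 15.8% were lowered under mOSM. Their median log2 fold change was 0.051, 0.097 and 0.18, against 0.00037, −0.0043 and −0.0052 over all tested genes. Xdh, which makes uric acid, had 179 ± 59.4 normalized counts (SD, n = 3) under PBS, 318 ± 46.2 under mLIF, 568 ± 90.9 under mOSM and 590 ± 85.9 under hlOSM, a log2 rise of 0.87, 1.71 and 1.76. Ampd2, another AMP deaminase, was raised by 0.37, 1.04 and 0.96. The ecto-nucleotidase gene Nt5e was raised by 0.22 with mOSM and 0.41 with hlOSM, and Aprt, which salvages adenine, by 0.46 and 0.40. Of the remaining calls, named after their values were seen, Ada was raised with mOSM (0.75), Adsl with hlOSM (0.18), and Adk was lowered with mOSM (−0.21). The muscle form Ampd1 stayed between 7 and 14 in all libraries. Per kilobase these genes were not compared.

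Around the shuttle, the adenine nucleotide carrier Slc25a4 was the only called gene of mitochondrial ATP and phosphate export. It was lowered with mOSM (−0.23) and hlOSM (−0.21), 1 of 6 tested genes in each, where 15.8% and 19.8% of all tested genes were lowered, and its difference with mLIF (−0.19) did not pass. Among 7 subunits of AMP-activated protein kinase, 1 was raised under mLIF, namely Prkab2 (0.24), and 2 were lowered under mOSM and under hlOSM, beside 5.47% of all tested genes raised by mLIF and the shares lowered just given. These were the catalytic subunit Prkaa2 (−0.27 and −0.24) and Prkag3 (−0.54 and −0.86), the latter named after its values were seen. Of 4 ATP-using pumps and motors looked at, the myosin heavy chains Myh6 and Myh7 were lowered by each cytokine, with −0.36 and −0.56 for hlOSM, 2 of 4 in each, where 4.44%, 15.8% and 19.8% of all tested genes were lowered. The call of Myh7 with mLIF was near the threshold (−0.26, limma adjusted p = 0.0415). It ended with the replicate number as a block (limma adjusted p = 0.0699). The calcium pump Atp2a2 and the sodium pump subunit Atp1b1 did not pass with any cytokine.

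Mb encodes myoglobin (chr15:77015487-77050670, minus strand). Myoglobin transcripts had normalized counts of 886, 844 and 919 under PBS, 871, 759 and 713 under mLIF, 690, 767 and 905 under mOSM, and 763, 817 and 770 under hlOSM. The hlOSM libraries lay below the PBS libraries, while mLIF replicate 1 and mOSM replicate 3 lay among them. The log2 fold change was −0.18 under mLIF, −0.17 under mOSM and −0.17 under hlOSM, each ± 0.08 (SE), and none passed (limma adjusted p of 0.151, 0.10 and 0.0897). Without mOSM replicate 3 the differences with mOSM and hlOSM passed (limma adjusted p of 0.00516 and 0.0354), within ranges over all alternatives of 0.00516 to 0.479 and 0.0158 to 0.230. Per kilobase Mb had 592 ± 25.2 normalized counts (SD, n = 3) with PBS, which overlapped the 614 ± 25.2 of Ckmt2, and both stood above the other 7 members. By the longest transcript in place of the exonic length, an alternative chosen after the values were seen, Mb with 799.8 ± 34.1 lay above Ckmt2 with 614 ± 25.2, without overlap. By exonic length, next came Ak1 with 227 ± 19.98, Ckm with 211 ± 13.9 and Ampd3 with 198 ± 20.4, which overlapped each other. By the longest transcript Ckm, with 224 ± 14.8, lay below Ak1 with 282.5 ± 24.8 and Ampd3 with 271.5 ± 28.0, without overlap, so these orders depend on the length used. By exonic length Slc6a8 had 116 ± 12.0, Ckb 37.2 ± 2.22, Ak4 29.8 ± 1.67 and Gatm 1.22 ± 0.385 per kilobase. With hlOSM, Ampd3 at 259 ± 22.2 per kilobase stood above Ckm at 201 ± 5.06 and Ak1 at 188 ± 9.81, and Ckb at 15.3 ± 0.869 stood below Ak4 at 26.6 ± 1.43, without overlap. As the exonic length of Ckb covers nearly all of its gene, its level may be too low. Its place relative to Ak4 therefore depends on that length.

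**Figure D3:**
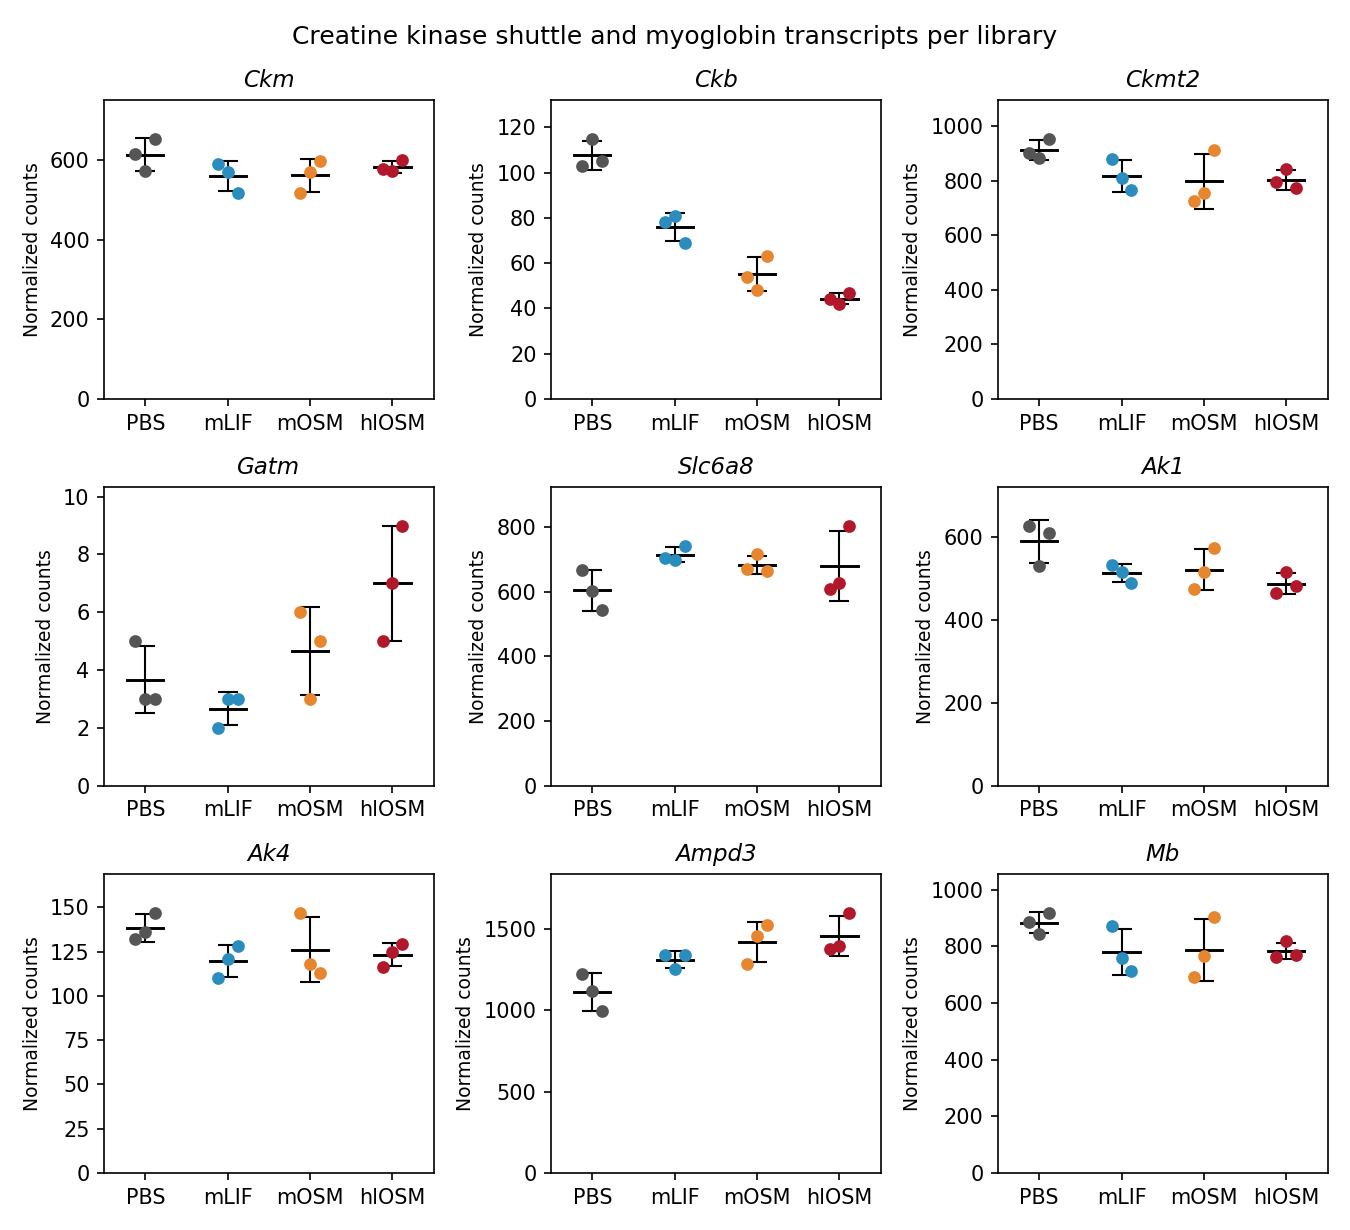
Normalized counts of the 9 genes in the 12 libraries (points, 3 per condition), with the mean and SD of each condition as bars; the axes start at 0 and differ between genes. Ckb steps down from 103 to 115 with PBS to 42 to 47 with hlOSM, Ampd3 is higher with each cytokine, and Gatm stays at 9 or less.

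Of 11 tested genes of other globins and haem synthesis, 1 was raised under mLIF, 2 were raised and 3 lowered under mOSM, and 2 were raised and 3 lowered under hlOSM. Over all tested genes, 5.47% were raised and 4.44% lowered by mLIF, 15.4% raised and 15.8% lowered by mOSM, and 18.2% raised and 19.8% lowered by hlOSM. Cytoglobin (Cygb) was lowered by −0.76 with mOSM and −0.99 with hlOSM. Cpox and Fech, enzymes late in haem synthesis, were lowered by −0.35 and −0.21 with hlOSM. Hmox1, which breaks haem down, was raised by 0.26, 0.32 and 0.33 with mLIF, mOSM and hlOSM. The further calls, named after their values were seen, were Alas1 with mOSM (0.19) and Ppox with hlOSM (0.39), both raised. Cells were kept in normoxia, and of 9 tested genes of the hypoxia response, 1 was raised and 1 lowered under mLIF, 2 and 2 under mOSM, and 2 and 4 under hlOSM, beside the same shares of all tested genes. With mLIF these were Slc2a1 and Vegfa, and with mOSM they were joined by Hif1a and Adm. With hlOSM, Hif1a (0.50) and the glucose transporter Slc2a1 (0.46) were raised, and the vasodilator Adm (−1.28) and the growth factor Vegfa (−0.61) were lowered, as were Bnip3 (−0.33) and Epas1 (−0.18), both named after their values were seen.

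Across the 12 libraries, Ckmt2 and Mb varied together, with a Pearson r of 0.960 between their log2 values and of 0.959 after the mean of each condition was taken out. Ckm had an r of 0.845 with Mb and 0.771 with Ckmt2, and Ak1 an r of 0.854 with Mb. Ckb followed Ckm less, with an r of 0.358. These points share library, preparation and normalization, and the values are descriptions. Among 8669 tested genes with a mean of at least 50, the closest to Ckmt2 were Fh1 (r of 0.982), Slc25a4 (0.981) and Hspa9 (0.977), and to Mb they were Uqcrfs1 (0.982), Myl3 (0.981) and Hspa9 (0.977). Ckb was closest to Amotl2 (0.986), Gm36827 (0.983) and Gm49708 (0.983), and Ampd3 to Tspan4 (0.991), Ctsb (0.989) and Gadd45b (0.989). For Ckm they were Mdh2 (0.942), Srp9 (0.942) and Gnas (0.939), for Ak1 Canx (0.951), Kif5b (0.940) and Txndc15 (0.939). Slc6a8 had Sntb2 (0.962), Irs2 (0.943) and Ogt (0.940), and Ak4 had Tet2 (0.946), Emc7 (0.914) and Ythdf1 (0.898).

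Markers of cardiomyocytes were lowered in the same conditions. Their summed normalized counts, led by Ttn, were 48063, 47742 and 49584 under PBS, 43186, 41431 and 41650 under mLIF, 34543, 33410 and 37420 under mOSM, and 34249, 36704 and 35728 under hlOSM. Of 7 markers, 6 were lowered under mLIF and 7 under mOSM and under hlOSM, where 4.44%, 15.8% and 19.8% of all tested genes were lowered. In bulk RNA, fewer cells of a type and less RNA per cell cannot be told apart. Transcripts of other cells were present as well, and Ckb in particular is expressed by many cell types. Mural markers, led by Cspg4, summed to 641, 684 and 755 under PBS, 637, 639 and 627 under mLIF, 593, 514 and 554 under mOSM, and 479, 497 and 507 under hlOSM, and 3 of 4 were lowered by mOSM and 4 of 4 by hlOSM. Fibroblast markers, led by Pdgfra, summed to 1660, 1605 and 1874 under PBS, 1587, 1585 and 1600 under mLIF, 1437, 1540 and 1571 under mOSM, and 1458, 1387 and 1442 under hlOSM, with 1 of 6 lowered by mLIF, 1 raised and 3 lowered by mOSM, and 2 raised and 4 lowered by hlOSM. Both sums were lower with hlOSM than with PBS in all libraries, as Ckb was.

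Endothelial markers, led by Kdr, summed to 986, 1043 and 1009 under PBS, 1024, 980 and 1021 under mLIF, 1215, 1269 and 1348 under mOSM, and 1313, 1227 and 1313 under hlOSM, with 1 of 5 lowered by mLIF, 3 raised by mOSM and 4 raised by hlOSM. Over all tested genes, 5.47% were raised and 4.44% lowered by mLIF, 15.4% and 15.8% by mOSM, and 18.2% and 19.8% by hlOSM. Leukocyte markers, led by Cd68, summed to 139, 142 and 142 under PBS, 155, 137 and 146 under mLIF, 191, 225 and 204 under mOSM, and 191, 180 and 255 under hlOSM, and 1 of 5, Cd68, was raised by each cytokine while 1, Itgam, was lowered by mOSM (−1.13). Ptprc, which all leukocytes carry, was at 24.7 ± 6.43 (SD, n = 3) with PBS and 18.7 ± 1.53 with hlOSM. The glial markers Sox10 and S100b were at 0 to 2 in each library, too low for a test. No red cell marker of the list of 5 was in the table used here. The part of these cells in the changes of Ckb, Ampd3 and the other members was not tested.

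Of 11 tested transcription factors and coactivators of muscle and mitochondrial genes, 2 were lowered under mLIF, 7 lowered and 1 raised under mOSM, and 6 lowered under hlOSM, where 4.44%, 15.8% and 19.8% of all tested genes were lowered and 15.4% were raised under mOSM. Of the 7, Myocd and also Gata4, Nfatc1 and Esrra, these 3 named after their values were seen, were near the threshold, with a limma adjusted p of 0.0374, 0.0299, 0.0412 and 0.0425 for log2 fold changes of −0.25, −0.19, −0.23 and −0.21. With hlOSM, Ppargc1a, a coactivator of mitochondrial genes, was lowered by −0.86, the MEF2 factors Mef2c and Mef2a by −0.76 and −0.48, and Myocd by −0.33. Mef2d and Tead1 did not pass with any cytokine. Nfatc4, named after its values were seen, was the 1 raised with mOSM, at no more than 23 normalized counts in any library.

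The 250 bases before the start of each member were read from a RefSeq promoter table (GRCm38.p6), which holds 8 of the 9 members in 18 windows; Slc6a8 has no entry. Searched on both strands were a STAT site (TTCNNNGAA), an E-box (CAGCTG), the MEF2 site, a hypoxia response element (ACGTG or GCGTG) and an ERR site (AAGGTCA). Of all 32851 promoters of the table, 7.02% held the STAT site, 13.0% the E-box, 2.92% the MEF2 site, 38.6% the hypoxia response element and 4.08% the ERR site. Of the 18 windows of members, 1 held the STAT site (Ckmt2), 6 the E-box, 1 the MEF2 site (Ckb), 9 the hypoxia response element and 1 the ERR site (Ak1), and windows of 1 gene can overlap. The creatine kinase windows are shown because they set the lowered Ckb and Ckmt2 beside Ckm, with matches in capitals, at chr7:19410844-19411093 (plus strand) for Ckm, chr12:111672339-111672588 (minus strand) for Ckb and chr13:91876886-91877135 (minus strand) for Ckmt2. In Ckm these are an E-box 249 bases and a hypoxia response element 148 bases before the start, in Ckb a MEF2 match 29 bases before the start, where a TATA box also commonly lies, and in Ckmt2 a STAT match 182 bases and an E-box 107 bases before it. A match is a description of the letters, and binding was not measured.
Ckm: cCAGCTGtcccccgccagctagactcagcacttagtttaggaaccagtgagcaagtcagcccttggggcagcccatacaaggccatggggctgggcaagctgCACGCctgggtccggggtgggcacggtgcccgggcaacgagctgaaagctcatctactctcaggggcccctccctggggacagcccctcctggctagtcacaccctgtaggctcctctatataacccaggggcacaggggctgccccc
Ckb: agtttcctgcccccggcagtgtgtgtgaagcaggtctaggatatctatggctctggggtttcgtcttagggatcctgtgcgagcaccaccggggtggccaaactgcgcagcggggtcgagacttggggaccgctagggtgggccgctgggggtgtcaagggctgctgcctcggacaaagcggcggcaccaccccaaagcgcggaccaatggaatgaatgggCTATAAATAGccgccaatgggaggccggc
Ckmt2: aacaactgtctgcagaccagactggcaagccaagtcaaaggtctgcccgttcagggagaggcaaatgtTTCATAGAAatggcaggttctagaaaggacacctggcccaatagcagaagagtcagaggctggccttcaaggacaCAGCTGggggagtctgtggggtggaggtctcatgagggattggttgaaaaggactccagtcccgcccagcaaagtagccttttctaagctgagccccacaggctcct

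Exons of some members lie opposite other genes. On the other strand, annotated exons cover 31.9% of the exonic bases of Mb (Apol6 and Gm49540), 15.5% of Ckm (A930016O22Rik), 6.95% of Ampd3 (B430319F04Rik and Rnf141) and 5.65% of Ckmt2 (1700119I11Rik), and on the same strand Gm47282 covers 1.48% of Ampd3. The library kit keeps strand, but whether the counting used it is not stated. As reads on more than 1 gene or place were left out of the counts, counting without strand would lose reads of these bases, and shared windows would lose them either way, so the levels of these genes may be too low. Of all 75-base windows of the transcripts, 9.61% of those of Ak4 also occur in Ak3l2-ps, 4.05% of those of Ckb in Gm12892 and 0.249% of those of Ampd3 in Gm47282, and 0% of those of the other 6 members occur in another gene.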

How the data were processed

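Normalized counts of 12 libraries of primary mouse cardiomyocytes, 3 per condition, were analysed, with conditions and replicate numbers read from sample titles. According to the authors, trimmed reads were aligned with STAR 2.7.7a to mm10 and counted per gene with featureCounts 1.6.5, and the counts were then normalized between libraries by an unnamed method and rounded. Each deposited value is a score, a normalized and rounded count, and its counting error cannot be computed from it. From these values, log2(value + 1) was fitted with limma 3.58.1 in R 4.3.3 (lmFit, eBayes with trend), with the 4 conditions in a single fit over the 13184 of 22915 genes with a value of at least 10 in at least 3 libraries. Tests were two-sided, with Benjamini-Hochberg adjustment over all genes tested and a threshold of 0.05. Lengths are unions of exons in GENCODE M21, and 75-base windows of its transcripts were searched with Python 3.11.15.

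All 9 members were named. Genes of each pathway list were counted, and those past the threshold with any cytokine and with a mean of at least 50 were named, at most the 4 with the largest change with hlOSM per list. For each member the 3 genes with the highest Pearson r over the 12 libraries were named. The members and lists were chosen with earlier results of these data known. A few genes of the lists, and the isoform shares of adenylate kinases, were left out for reasons unrelated to their values. The alternatives were pseudocounts of 0.1 and 5, no filter, a filter at 50, scaling by trimmed means of M-values, quantile normalization, a robust fit, a fit of the compared libraries alone, the replicate number as a block, each library left out, and, for isoform shares, the longest transcript.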

Additional observations from a re-analysis of the deposited data

How the results depend on the processing

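Fold changes of members were compared with their values under each other choice, which gave 1168 comparisons. Of these, 1081 kept direction and side of the threshold, 28 calls were lost, 26 were gained and 33 differences turned direction, and the cause was not tested. Many of the 1081 were differences that passed in neither fit. In all 21 alternatives the calls of Ckb with mOSM, with hlOSM and for hlOSM against mLIF, of Ampd3 with mOSM and hlOSM, and of Ak1 with hlOSM were kept. The values below are log2 fold changes, with limma adjusted p in brackets. Against PBS with mLIF, 2 members were called, and 1 without a filter, 1 with a replicate block, 4 in a robust fit and 4 with only the libraries compared. Ampd3 lost its call there without a filter (0.243, 0.0618) and with the replicate block (0.243, 0.0536; range over its alternatives 0.0073 to 0.225). Slc6a8 passed with a filter at 50 (0.246, 0.0477), quantile normalization (0.275, 0.0361), the robust fit (0.244, 0.0112) and only the libraries compared (0.246, 0.0179; range 0.0112 to 0.281). Mb passed in the robust fit (−0.203, 0.0459; range 0.0459 to 0.478) and Ak1 with only the libraries compared (−0.199, 0.0428; range 0.0298 to 0.272). With mOSM the robust fit called 6 members, not 3, adding Slc6a8 (0.179, 0.0235; range 0.0235 to 0.414), Ak1 (−0.192, 0.0473; range 0.0112 to 0.306) and Mb (−0.202, 0.0318; range 0.00516 to 0.479). Ckmt2 lost its call with mOSM without a filter (−0.2, 0.0575), with trimmed means of M-values (−0.188, 0.0556), quantile normalization (−0.158, 0.0638) and only the libraries compared (−0.2, 0.0515; range 0.000728 to 0.193). With hlOSM it did so without a filter (−0.185, 0.0693), with trimmed means of M-values (−0.171, 0.0696), quantile normalization (−0.136, 0.0961) and the replicate block (−0.185, 0.0598; range 0.00936 to 0.152), and Mb passed in the robust fit (−0.172, 0.0404) and with only the libraries compared (−0.172, 0.0158; range 0.0158 to 0.23). In the interaction the robust fit called 1 member, Slc6a8 (−0.34, 0.0433; range 0.0433 to 0.661). Differences near 0 turned direction for Mb between mOSM and mLIF under quantile normalization (−0.003) and for Ak4 between hlOSM and mOSM in the robust fit (0.017). Replicate numbers do not pair the libraries by the labels. Their deviations correlated between conditions by −0.518 to 0.0221 over 18 pairs. As replicate means were nearly absent from the values, negative correlations follow from that alone and say nothing on whether libraries were paired. The replicate block called 1 member lowered and 0 raised with mLIF, where the fit without it called 1 of each. Of 68 calls of pathway genes against PBS 11 did not pass with the replicate block, and of 50 of cell markers 6. Among transcription factors and coactivators, 3 and not 7 were lowered by mOSM, and of cardiomyocyte markers 4 and not 6 by mLIF. The limma adjusted p with the block was 0.0699 for Myh7 and 0.0668 for Hmox1 with mLIF, 0.0550 for Prkag3, 0.0550 for Alas1 and 0.0622 for Itgam with mOSM, and 0.0957 for Adsl, 0.103 for Ppox and 0.0560 for Epas1 with hlOSM, and other alternatives were not run for these genes. Leaving out 1 library at a time gave 0 to 3 called members with mLIF, 2 to 5 with mOSM, 0 to 1 for mOSM against mLIF and 0 to 1 for the interaction. The fold changes then ranged, with mLIF, from −0.546 to −0.431 (Ckb), 0.171 to 0.32 (Slc6a8), −0.273 to −0.152 (Ak1) and 0.164 to 0.313 (Ampd3). With mOSM the ranges were −0.301 to −0.137 (Ckmt2), 0.106 to 0.255 (Slc6a8), −0.251 to −0.111 (Ak1) and −0.278 to −0.083 (Mb), and with hlOSM −0.22 to −0.153 (Ckmt2), 0.038 to 0.238 (Slc6a8) and −0.204 to −0.143 (Mb). For mOSM against mLIF they were −0.566 to −0.373 (Ckb), −0.049 to 0.064 (Ckm), −0.142 to 0.021 (Ckmt2), −0.05 to 0.087 (Ak1), −0.048 to 0.14 (Ak4) and −0.097 to 0.098 (Mb). For hlOSM against mLIF they were −0.074 to 0.027 (Ckmt2), −0.014 to 0.094 (Ak4) and −0.054 to 0.09 (Mb). For hlOSM against mOSM they were −0.003 to 0.102 (Ckm), −0.048 to 0.115 (Ckmt2), −0.143 to 0.057 (Slc6a8), −0.095 to 0.093 (Ak4), −0.034 to 0.089 (Ampd3) and −0.09 to 0.106 (Mb), and for the interaction −0.39 to −0.188 (Slc6a8). Under mLIF, calls ended without mLIF replicate 3 for Ckb, and without PBS replicates 2 or 3 or any mLIF library for Ampd3. With the longest transcript as length, Ckm held 25.56% of creatine kinase counts per kilobase with PBS and 26.14% with mLIF, and Ckmt2 70.01% and 70.35%. In an alternative chosen after seeing the data, counts per kilobase by the longest transcript moved with PBS and hlOSM to 152.4 and 171.5 (Slc6a8), 282.5 and 233.7 (Ak1), 31.73 and 28.29 (Ak4), 271.5 and 356 (Ampd3) and 799.8 and 709.5 (Mb), and with hlOSM to 213.1 (Ckm).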
